A study of Mus musculus with 15 samples.

Results

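The genes described here build and run the vesicle traffic between the endoplasmic reticulum (ER) and the Golgi apparatus, and they were followed through mouse B cell differentiation. They are 38 genes chosen by symbol, out of 21669 with a symbol in the deposited table. By role they are 8 genes of the COPII coat, 4 of COPII assembly, 7 of the COPI coat, 5 coding for ARF GTPases or their exchange factor, 8 cargo receptors, 3 KDEL receptors, and 3 coding for tethers or a SNARE. The cells came from spleens of wild-type female C57BL/6J mice and make 5 groups of 3 poly(A) RNA-seq libraries. Naive B cells (nB) were CD43- and neither stimulated nor treated. The other cells were cultured with lipopolysaccharide (LPS), Il2, and Il5, together with GSK343, an inhibitor of the histone methyltransferase EZH2, or with its vehicle DMSO. From these cultures activated B cells (actB) were sorted as B220+GL7+CD138- and plasmablasts (Pb) as CD138+. For Pb treated with GSK343 the stimulation label names Il6 where all others have Il5. The culture protocol of the same samples and the study's methods name Il5 for all, so whether these cells had another cytokine is not known. The comparisons follow activation (actB against nB, both without inhibitor), the step to plasmablasts (Pb against actB), and the effect of GSK343 in each cultured cell type.

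Proteins made for secretion leave the ER in vesicles that are coated with COPII, a layered coat that the small GTPase SAR1 assembles on the membrane. COPI vesicles, assembled by ARF GTPases, run the other way and bring back escaped ER residents, which KDEL receptors recognize by their tail sequence, together with the cargo receptors themselves. Plasmablasts secrete antibody in bulk, and this route is what each antibody molecule travels on its way out of the cell.

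Between 19421830 and 26307413 reads were counted per library. The nB libraries 1 and 2 hold the same reads within sampling noise (chi-square per degree of freedom 0.00958 over 14442 genes, against at least 3.58 for other pairs within a group) and were merged, so that nB has n = 2. Values are RPKM, read counts scaled to gene length and library size, and describe shares of the sequenced RNA: in such bulk samples, fewer cells of a type and less RNA per cell cannot be told apart. The labels were checked against marker genes. The summed RPKM of 6 plasma cell genes was 365 to 375 in nB, 995 to 1030 in actB with DMSO, and 4620 to 4870 in Pb with DMSO, and that of 6 B cell genes was 3370 to 3500, 1850 to 2140, and 922 to 942. Not every plasma cell gene rose after activation. *Sdc1*, which codes for CD138, was at 5.22 and 5.12 RPKM in nB, 0.769, 0.694, and 0.532 in actB, and 28.8, 30.4, and 29.8 in Pb. *Irf4* was at 127 and 112 RPKM in nB and 112, 107, and 109 in actB, and the other genes of the list rose at both steps. The nB libraries also held RNA of other blood cells: 6 macrophage and monocyte genes summed to 174 to 217 RPKM, against 4.16 to 5.47 in actB and 0.482 to 0.930 in Pb with DMSO. The summed level of 5 T cell genes was 19.4 to 20.8 RPKM in nB and at most 0.313 in these cultured groups, and the neutrophil genes *S100a8*, *S100a9*, and *Elane* were at 0 in every cultured library. Genes of NK cells (18.5 to 21.9 RPKM in nB), neutrophils (21.6 to 23.9), dendritic cells (20.3 to 26.9), and erythroid cells (30.6 to 138) were summed too. In actB with DMSO the dendritic cell sum was 38.8 to 65.3, nearly all of it *Flt3* (38.5, 64.6, and 38.5, against 12.1 and 12.2 in nB), while the other 3 genes of that list were lower than in nB. How much these cells add to the nB values of the transport genes was not tested.

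Promoter sequences of 33 of the 38 genes were found in RefSeq (GRCm38.p6), as 37 windows of 300 bases that run from 250 before to 50 after an annotated start. *Arcn1*, *Golgb1*, *Kdelr2*, *Lman1*, and *Tmed2* had no window. The windows were searched on both strands for sequences known from ER stress signalling, because most of these genes rose together from actB to Pb. The 8 letters TGACGTGG, the core of the unfolded protein response element that XBP1 and ATF6 bind, stood in 8 windows of 7 genes (*Sec24d*, *Kdelr3*, *Sec23a*, *Copb1*, *Copb2*, *Arf1*, and *Gbf1*). That is 21.6% of the windows of these genes, against 0.676% of all 32851 windows and 0.894% of the 10856 windows of genes tested below. The windows of *Arf1* overlap and hold the same site, which is counted in both. By gene, the share was 7 of 33 (21.2%), against 1.08% of the 8572 tested genes with a window. The 5 letters CCACG, which read on the other strand are the end of TGACGTGG and so overlap it, stood in 78.4% of the windows, against 32.8% of all and 47.2% of those of tested genes. The cyclic AMP response element TGACGTCA stood in 1 gene, *Cope* (2.70% of the windows, against 1.79% of all and 3.18% of those of tested genes). The ER stress response elements ERSE (CCAAT, 9 bases, CCACG) and ERSE-II (ATTGG, 1 base, CCACG) were in none of the 37 windows and in 0.119% and 0.0365% of all (0.138% and 0.0737% of those of tested genes), and CCAAT alone was in 35.1%, against 37.4% and 38.2%. A match of letters is a description and does not show that a factor binds there.

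The 7 genes with TGACGTGG span 4 roles. From actB to Pb, *Kdelr3* (log2 fold change 3.22) and *Sec24d* (2.29) rose most of the 38 genes. *Sec23a* (1.52) also lay above their median of 1.09. *Copb2* (0.80), *Gbf1* (0.69), *Copb1* (0.65), and *Arf1* (0.38) lay below it. *Sec24a* (2.19) and *Mcfd2* (1.58) rose without TGACGTGG in their windows. Whether the motif goes with the size of the rise was not tested. The stretches that hold TGACGTGG come from all 7 genes. They are written 5′ to 3′ along the gene's strand, with the motif (TGACGTGG, or CCACGTCA where it lies on the other strand) in capitals. In build GRCm38.p6 they lie at chr3:123267440-123267495 (plus strand) for *Sec24d*, chr15:79516348-79516407 (plus) for *Kdelr3*, chr12:59011993-59012022 (minus) for *Sec23a*, chr7:114254681-114254738 (minus) for *Copb1*, chr9:98563713-98563742 (plus) for *Copb2*, chr11:59228209-59228276 (minus) for *Arf1*, and chr19:46152516-46152557 (plus) for *Gbf1*.
Sec24d: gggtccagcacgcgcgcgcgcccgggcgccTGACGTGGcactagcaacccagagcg
Kdelr3: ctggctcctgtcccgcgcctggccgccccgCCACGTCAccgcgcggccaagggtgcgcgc
Sec23a: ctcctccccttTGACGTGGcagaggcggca
Copb1: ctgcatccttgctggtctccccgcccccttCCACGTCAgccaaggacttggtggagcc
Copb2: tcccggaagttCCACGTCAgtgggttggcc
Arf1: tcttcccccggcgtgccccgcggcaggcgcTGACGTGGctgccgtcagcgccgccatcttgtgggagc
Gbf1: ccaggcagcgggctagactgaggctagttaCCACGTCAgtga

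All 38 genes passed the filter on low values (1 RPKM or more in 3 or more of the 15 columns) and were tested among 11299 genes. Tests were run with limma, on log2(RPKM + 0.25) values and with Benjamini-Hochberg adjustment over all genes tested, and are given as log2 fold changes ± standard error on that scale. Together they took 0.465 to 0.481% of the counted reads in nB, 0.618 to 0.654% in actB with DMSO, and 1.28 to 1.31% in Pb with DMSO. Their median level was 28.3 to 30.1 RPKM in nB, 41.9 to 44.5 in actB, and 82.3 to 83.5 in Pb, while the median of all genes tested stayed between 10.3 and 11.3 in these libraries. The highest level in Pb was that of *Tmed2*, a p24 family cargo receptor of both coats (424, 409, and 411 RPKM), followed by *Surf4*, a receptor for soluble secreted cargo (242, 246, and 243). The lowest was that of *Kdelr3* (11.4, 13.8, and 11.8).

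**Figure D1:**
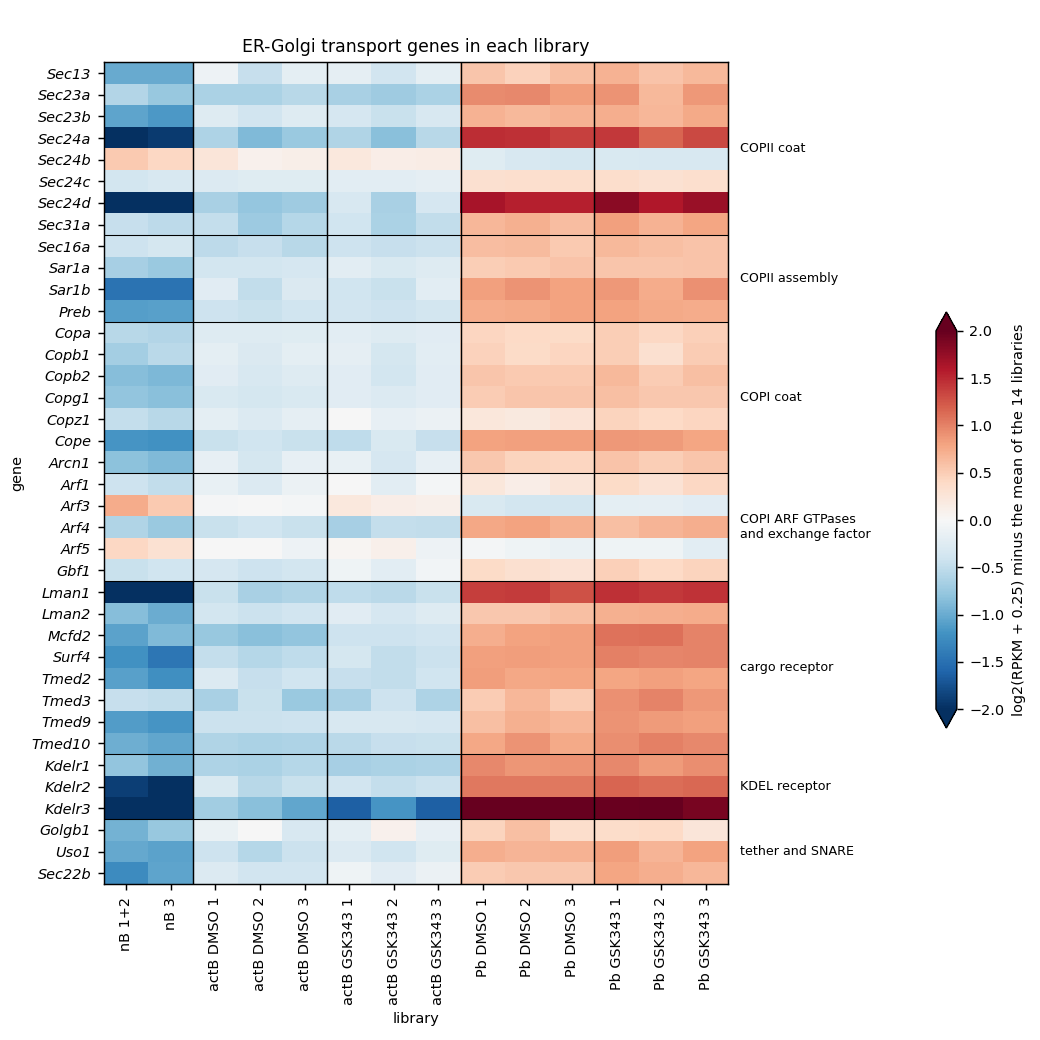
Heat map of the 38 genes (vertical axis, grouped by role) in the 14 libraries (horizontal axis), as log2(RPKM + 0.25) minus the gene's mean over the libraries, with colours ending at -2 and 2. Most genes go from blue in nB to red in Pb, *Sec24b*, *Arf3*, and *Arf5* run the other way, and GSK343 libraries look much like DMSO libraries of the same cell type.

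Along the step from actB to Pb, 35 of the 38 genes were higher in Pb and 2 were lower (limma, adjusted p under 0.05). That is 92.1% and 5.26%, against 27.3% and 42.4% of all genes tested. The median log2 fold change was 1.09, against -0.12 over all genes tested. After activation, 30 of the 38 were higher in actB than in nB and 4 were lower (78.9% and 10.5%), against 40.9% and 36.3% of all genes tested, with a median of 0.51 against 0.05. From nB to Pb, 35 were higher and 3 were lower (92.1% and 7.89%), against 39.5% and 41.1% of all genes, with a median of 1.51 against -0.02. These 3 comparisons share libraries with each other and are not independent. Centring every library on its median moved the median of all genes from actB to Pb to -0.0048 and the calls over all genes from 3086 higher and 4791 lower to 3813 and 3899 (3822 and 3953 by edgeR with RLE factors). The calls of the transport genes stayed at 35 and 2, with a median of 1.20.

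**Figure D2:**
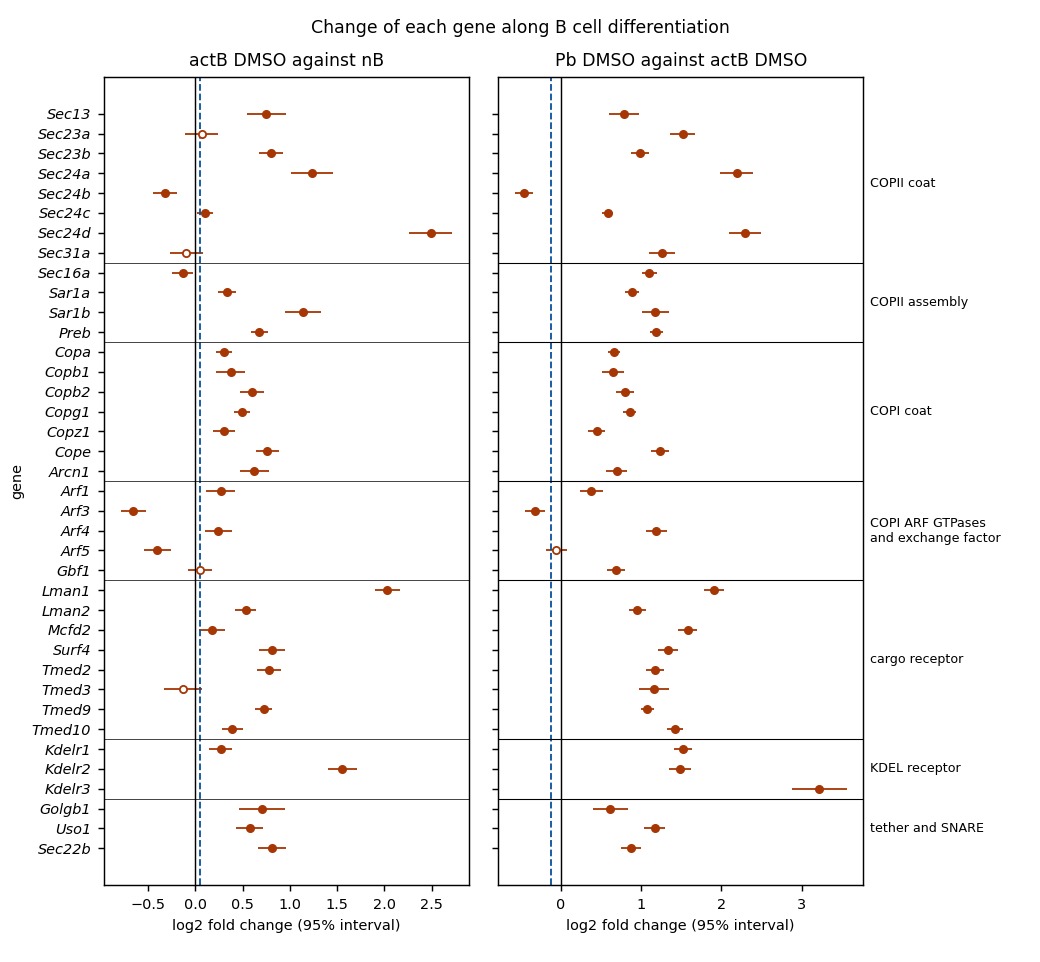
Log2 fold change of each gene (points, with the 95% interval) for actB DMSO against nB (left) and Pb DMSO against actB DMSO (right); filled points have an adjusted p under 0.05 and the dashed line is the median of all genes tested. *Kdelr3* is left out on the left, where its nB level rests on 3 reads. In Pb all points but those of *Sec24b*, *Arf3*, and *Arf5* lie right of 0.

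In the COPII coat, 7 of 8 genes rose from actB to Pb and 1 fell, and the 4 SEC24 paralogues, which form the inner layer that picks up cargo, went different ways. *Sec24d* was at 2.12 and 2.63 RPKM in nB, 15.1, 13.8, and 14.5 in actB, and 75.01, 70.2, and 70.2 in Pb. No library of one stage overlapped with another stage, and the log2 fold change was 2.49 ± 0.106 (adjusted p = 4.17e-10) after activation and 2.29 ± 0.0952 (adjusted p = 7.05e-10) from actB to Pb. *Sec24a* went from 3.11 and 3.48 RPKM in nB to 8.85, 7.36, and 8.12 in actB and 38.9, 38.5, and 36.1 in Pb. This is a rise at both steps, by 1.24 ± 0.104 (adjusted p = 2.64e-07) and by 2.19 ± 0.0934 (adjusted p = 8.34e-10) on the log2 scale. *Sec24b* was at 29.9 and 27.9 RPKM in nB, 24.7, 22.1, and 22.5 in actB, and 17.5, 16.6, and 16.2 in Pb. Its level fell at both steps, with log2 fold changes of -0.32 ± 0.0589 (adjusted p = 0.000283) and -0.46 ± 0.0527 (adjusted p = 6.84e-06). *Sec24c*, per length the paralogue with the highest level in all 3 stages, was at 53.9 and 55.3 RPKM in nB, 57.6, 58.8, and 58.9 in actB, and 86.5, 87.98, and 88.8 in Pb. It rose from actB to Pb by 0.58 ± 0.034 (adjusted p = 1.23e-08). Its small difference after activation (log2 fold change 0.10 ± 0.038, adjusted p = 0.0318) lost its call in 9 of 28 alternative settings of the analysis (other pseudocounts, filters, scalings, tools, and left-out libraries) and turned to -0.05 (adjusted p = 0.301) with quantile normalization.

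The makeup of the SEC24 family differed between the stages. *Sec24b* and *Sec24c* together held most of the family's RPKM in nB, with 32.4% ± 1.6 and 61.2% ± 0.95 (SD, n = 2), and *Sec24d* held 2.66% ± 0.40. In actB, *Sec24d* held 13.9% ± 0.34 (n = 3), and in Pb it held 33.5% ± 0.80 while *Sec24b* held 7.82% ± 0.17. *Sec24a* went from 3.70% ± 0.28 in nB over 7.78% ± 0.56 in actB to 17.7% ± 0.51 in Pb. The deposited length of *Sec24a* is 13958 bases, against 4148 to 4827 for its paralogues, so its RPKM level depends on how much of that length is transcribed. By reads not divided by length (RPM), a scale added after seeing the data, *Sec24a* held 39.7% ± 0.85 of the family in Pb and 10.1% ± 0.72 in nB, and *Sec24d* held 22.4% ± 0.56 and 2.16% ± 0.32. By RPM *Sec24c* held 57.9% ± 0.62 in nB and 31.9% ± 1.1 in Pb, where it came after *Sec24a*. On both scales *Sec24a* and *Sec24d* gained and *Sec24b* and *Sec24c* lost share, while the family's summed level rose from 89.1 ± 0.187 RPKM in nB to 104.1 ± 2.11 in actB and 214.1 ± 3.37 in Pb. In mm9 the genes lie at chr11:51505765-51577136 (*Sec24a*, minus strand), chr3:129685677-129764471 (*Sec24b*, minus), chr14:21493543-21514072 (*Sec24c*, plus), and chr3:122970414-123068553 (*Sec24d*, plus). *Sec24c* shares exon bases with *6230400D17Rik* on the other strand, and *Sec24d* with *Mettl14*, and the use of strand in counting is not stated.

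**Figure D3:**
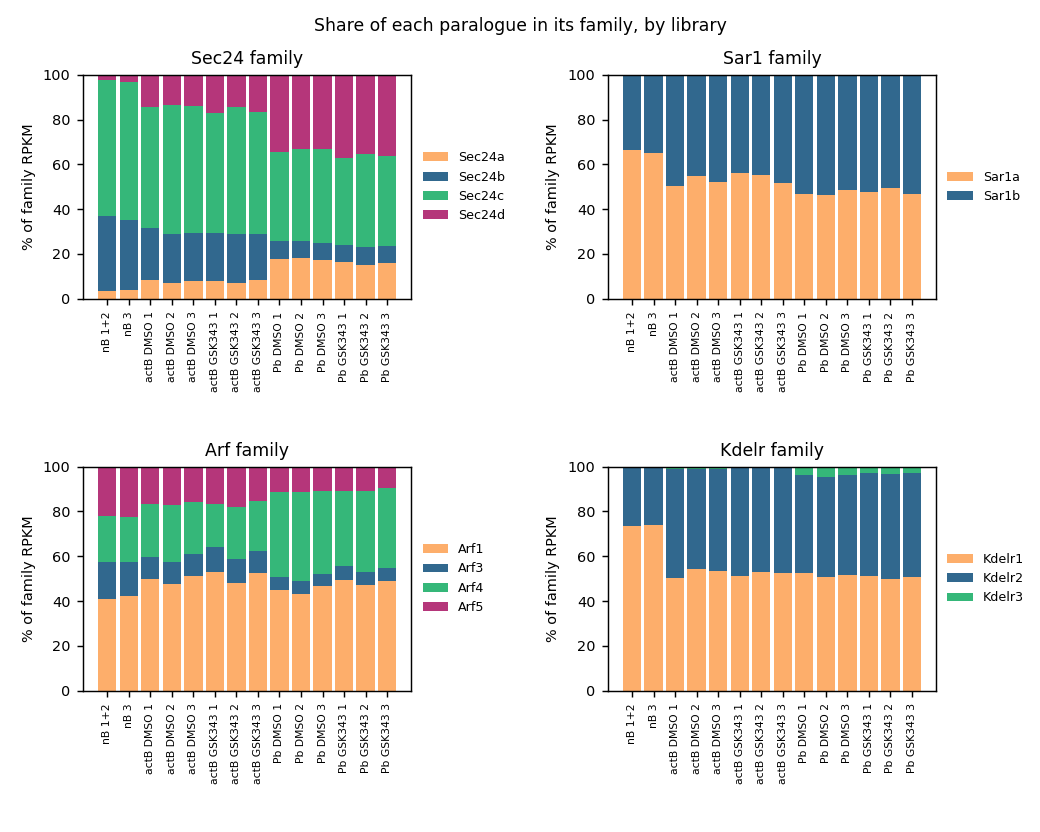
Share of each paralogue in the summed RPKM of its family (stacked bars, %), by library, for the SEC24, SAR1, ARF, and KDEL receptor families. *Sec24d* grows from 2.66% of its family in nB to 33.5% in Pb with DMSO, and the bars with GSK343 resemble those with DMSO of the same cell type.

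The partners of SEC24 in the inner coat, the SEC23 proteins that switch off SAR1, both rose from actB to Pb. *Sec23a* was at 9.60 and 8.57 RPKM in nB, 9.35, 9.33, and 9.83 in actB, and 28.3, 28.7, and 26.1 in Pb. It was called higher at the second step (1.52 ± 0.0702, adjusted p = 1.68e-09), and after activation its difference was 0.06 ± 0.0785 (adjusted p = 0.463). *Sec23b* was at 25.01 and 23.5 RPKM in nB, 43.6, 39.8, and 43.6 in actB, and 85.2, 82.5, and 84.3 in Pb. It rose at both steps, by 0.80 ± 0.0578 (adjusted p = 6.2e-08) and 0.99 ± 0.0517 (adjusted p = 5.06e-09). *Sec23b* held 72.8% ± 0.73 of the pair's RPKM in nB, 81.7% ± 0.68 in actB, and 75.2% ± 1.1 in Pb. Of the outer cage, *Sec13*, which is also part of nuclear pores, rose at both steps (log2 fold changes 0.75 and 0.79). *Sec31a* rose from actB to Pb (1.26 ± 0.0723, adjusted p = 1.12e-08), and its value after activation was -0.10 ± 0.0808 (adjusted p = 0.285). *Sec23a* shares exon bases with *Gm17529* on the other strand.

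All 4 genes of COPII assembly rose from actB to Pb, with log2 fold changes from 0.89 to 1.19. The SAR1 GTPases start the coat. *Sar1a* was at 46.9 and 44.4 RPKM in nB, 57.2, 57.2, and 58.4 in actB, and 104, 106, and 110 in Pb. *Sar1b* was at 23.6 and 23.7 RPKM in nB, 56.5, 47.1, and 54.04 in actB, and 118, 123.2, and 116 in Pb. *Sar1a* was above *Sar1b* in both nB libraries, and *Sar1b* was above *Sar1a* in all 3 Pb libraries with DMSO. *Sar1b* rose more at the first step (1.14 ± 0.0862, adjusted p = 9.31e-08) than *Sar1a* (0.34 ± 0.0435, adjusted p = 1.43e-05), and their 95% intervals, 0.952 to 1.33 and 0.240 to 0.430, do not overlap. From actB to Pb the changes were 1.18 ± 0.0771 (adjusted p = 3.51e-08) and 0.89 ± 0.0389 (adjusted p = 1.04e-09). *Sar1b* thus went from 34.2% ± 1.0 of the pair's RPKM in nB to 47.6% ± 2.3 in actB and 52.7% ± 1.1 in Pb. By RPM, *Sar1a* remained the larger share in every group, with 65.1% ± 1.0 in Pb, because its deposited length is 2602 bases against 1253 for *Sar1b*. *Preb*, the exchange factor that loads SAR1 with GTP, rose at both steps (log2 fold changes 0.67 and 1.19), and shares exon bases with *Abhd1* on the other strand. *Sec16a*, the scaffold of ER exit sites, was slightly lower in actB than in nB (-0.14 ± 0.0508, adjusted p = 0.0279, a call lost in 4 of 28 settings) and then rose (1.10 ± 0.0455, adjusted p = 6.55e-10).

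In the COPI coat, all 7 genes rose at both steps, by 0.31 to 0.76 on the log2 scale after activation and by 0.45 to 1.24 from actB to Pb. The largest change was that of *Cope*, which codes for the ε subunit, at 22.1 and 21.6 RPKM in nB, 36.8, 38.1, and 36.6 in actB, and 87.1, 88.4, and 88.8 in Pb. The smallest from actB to Pb was that of *Copz1*, the ζ subunit, at 30.3 and 28.7 RPKM in nB, 37.1, 35.2, and 37.4 in actB, and 49.9, 48.7, and 51.4 in Pb. For neither gene did libraries of different stages overlap. The log2 fold changes from actB to Pb were 1.24 ± 0.0508 (adjusted p = 6.25e-10) for *Cope* and 0.45 ± 0.0482 (adjusted p = 3.52e-06) for *Copz1*. Between them lay *Copa* (0.66), *Copb1* (0.65), *Arcn1* (0.70), *Copb2* (0.80), and *Copg1* (0.86), which code for the α, β, δ, β′, and γ1 subunits. *Copa* shares exon bases with *Ncstn* and *Copg1* with *Gm16723* on the other strand.

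The ARF GTPases, which recruit COPI to membranes, did not move as a group. *Arf4* was at 63.5 and 57.4 RPKM in nB, 70.9, 72.8, and 70.6 in actB, and 164, 168, and 158 in Pb. Most of its rise came at the second step (1.19 ± 0.0586, adjusted p = 2.85e-09, against 0.24 ± 0.0655, adjusted p = 0.00472 after activation, where the call was lost in 4 of 28 settings). *Arf1*, the most abundant of the 4, was at 125 and 118 RPKM in nB, 149, 137, and 154 in actB, and 194, 182, and 197 in Pb, and rose by 0.27 ± 0.0714 (adjusted p = 0.00442) and 0.38 ± 0.0638 (adjusted p = 0.00016). *Arf3* was at 49.5 and 42.5 RPKM in nB, 29.01, 29.2, and 28.7 in actB, and 23.9, 22.8, and 22.9 in Pb. It fell at both steps, with log2 fold changes of -0.66 ± 0.0617 (adjusted p = 7.11e-07) and -0.32 ± 0.0552 (adjusted p = 0.000219). *Arf5* was at 67.2 and 62.4 RPKM in nB, 49.8, 50.2, and 46.8 in actB, and 48.7, 47.1, and 45.6 in Pb. It fell after activation (-0.40 ± 0.0657, adjusted p = 0.000104), and from actB to Pb, where the groups overlap, the log2 fold change was -0.05 (adjusted p = 0.443, 95% interval -0.18 to 0.08). Per length, *Arf4* thus went from 20.6% ± 0.27 of the 4 genes' RPKM in nB to 38.5% ± 1.4 in Pb, and *Arf3* from 15.7% ± 0.77 to 5.46% ± 0.072. *Gbf1*, the exchange factor for ARFs at the cis-Golgi, rose from actB to Pb (0.69 ± 0.0513, adjusted p = 1.08e-07) and had a value of 0.05 ± 0.0574 (adjusted p = 0.427) after activation. *Arf4* shares exon bases with *Pde12* and *4930570N19Rik* on the other strand, and *Gbf1* with *Gm16726*.

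All 8 cargo receptors rose from actB to Pb, with log2 fold changes from 0.95 to 1.91, and 7 of them rose after activation. *Lman1*, the mannose-binding receptor ERGIC-53, was at 11.9 and 11.97 RPKM in nB, 54.1, 46.8, and 48.4 in actB, and 192, 194, and 178 in Pb. Its log2 fold changes were 2.03 ± 0.0627 (adjusted p = 2.46e-11) and 1.91 ± 0.0561 (adjusted p = 5.22e-11), the largest of the group at both steps. Its partner *Mcfd2*, which works with LMAN1 in a cargo receptor complex, was at 10.6 and 12.1 RPKM in nB, 13.1, 12.4, and 12.8 in actB, and 37.2, 39.2, and 39.8 in Pb. *Mcfd2* had little of the first rise (0.18 ± 0.0609, adjusted p = 0.0191, a call lost in 8 of 28 settings) and most of the second (1.58 ± 0.0545, adjusted p = 1.74e-10). Of the p24 family, *Tmed2*, *Tmed9*, and *Tmed10* rose at both steps, by 0.39 to 0.78 and then by 1.08 to 1.42. *Tmed3* had a value of -0.13 ± 0.0934 (adjusted p = 0.215) after activation, which the replicate block turned into a fall (-0.19, adjusted p = 0.00307, with the merged nB library as number 1), and rose by 1.16 ± 0.0836 (adjusted p = 8.28e-08) from actB to Pb. *Lman2* and *Surf4* rose at both steps, by 0.53 and 0.81 and then by 0.95 and 1.34. *Surf4* shares exon bases with *Surf2* on the other strand.

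The 3 KDEL receptor genes, whose products return chaperones to the ER, all rose at both steps. *Kdelr1* was at 49.8 and 44.1 RPKM in nB, 56.1, 55.6, and 57.6 in actB, and 168, 158, and 161 in Pb, and most of its rise came from actB to Pb (0.27 ± 0.0563, adjusted p = 0.000811, then 1.52 ± 0.0503, adjusted p = 1.41e-10). *Kdelr2* was at 18.04 and 15.6 RPKM in nB, 54.5, 45.97, and 49.2 in actB, and 140, 139, and 140 in Pb, and rose at both steps (1.56 ± 0.0715, adjusted p = 8.25e-10, then 1.49 ± 0.0639, adjusted p = 8.92e-10). *Kdelr2* thus went from 26.3% ± 0.32 of the family's RPKM in nB to 46.4% ± 2.1 in actB. *Kdelr3* was nearly silent in nB, with 3 reads in the merged library and 0 in library 3, where 3 reads would equal 0.0926 RPKM. It was at 1.25, 1.11, and 0.933 RPKM in actB and 11.4, 13.8, and 11.8 in Pb, which is a log2 fold change of 3.22 ± 0.156 (adjusted p = 2.56e-09), the largest of all 38 genes. Against nB its reads, scaled to library size, were 23.8 times as many in actB (112 reads against 3, exact 95% interval 7.94 to 117.2) and 267 times as many in Pb (1060 reads, 91.3 to 1299), intervals that cover counting error only. With 3.93% ± 0.45 of the family's RPKM in Pb, *Kdelr3* still stood far below *Kdelr1* (51.6% ± 0.89) and *Kdelr2* (44.5% ± 0.49). *Kdelr3* lies at chr15:79346838-79358169 (mm9, plus strand) and shares exon bases with *Ddx17* on the other strand.

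The tethers and the SNARE rose at both steps. *Uso1*, the p115 tether that captures vesicles, rose by 0.57 ± 0.0669 (adjusted p = 5.37e-06) and 1.17 ± 0.0598 (adjusted p = 3.97e-09), *Golgb1*, the Golgi tether giantin, by 0.70 ± 0.111 (adjusted p = 7.96e-05) and 0.62 ± 0.0991 (adjusted p = 0.000117), and the SNARE gene *Sec22b* by 0.81 ± 0.0665 (adjusted p = 2.05e-07) and 0.88 ± 0.0595 (adjusted p = 4.95e-08). From nB to Pb the largest fitted log2 fold changes, beside *Kdelr3*, were those of *Sec24d* (4.79 ± 0.106, adjusted p = 8.98e-13), *Lman1* (3.94 ± 0.0627, adjusted p = 1.07e-13), and *Sec24a* (3.43 ± 0.104, adjusted p = 9.91e-12). The falls were those of *Arf3* (-0.98 ± 0.0617, adjusted p = 9.84e-09), *Sec24b* (-0.78 ± 0.0589, adjusted p = 6.09e-08), and *Arf5* (-0.46 ± 0.0657, adjusted p = 3.03e-05).

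A wider list of 89 other genes of the route, of which 87 were tested, covers accessory factors, further receptors, tethers, and SNAREs. From actB to Pb, 52 were higher and 17 lower (59.8% and 19.5%, against 27.3% and 42.4% of all genes tested), with a median log2 fold change of 0.24. By class, 13 of 15 further cargo receptors were higher and 2 lower, 10 of 18 SNAREs and fusion factors were higher and 3 lower, 19 of 35 tethers and Rabs were higher and 6 lower, 7 of 10 COPII accessory genes were higher and 2 lower, and 3 of 9 COPI accessory genes were higher and 4 lower. The largest rises were those of *Copz2*, a second ζ subunit (3.27 ± 0.311, adjusted p = 1.15e-06), *Ergic1*, a receptor of the ER-Golgi intermediate compartment (2.34 ± 0.0737, adjusted p = 8.78e-11), and *Arfgap3*, which switches off ARF1 (2.01 ± 0.0458, adjusted p = 1.07e-11). *Copz2* was at 0.636, 1.83, and 0.931 RPKM in actB and 10.7, 15.9, and 10.8 in Pb, where every library lay far below that of *Copz1*. The largest falls were those of *Copg2*, the second γ subunit (-1.01 ± 0.075, adjusted p = 1.12e-07), *Trappc5*, of the TRAPP tethers (-1.01 ± 0.0546, adjusted p = 6.65e-09), and *Bcap29*, an ER membrane protein (-0.96 ± 0.0731, adjusted p = 1.44e-07). *Copg2* was at 12.2, 15.5, and 13.3 RPKM in actB and 6.45, 6.74, and 6.73 in Pb, while its paralogue *Copg1* rose. After activation 34 of the 87 were higher and 36 lower (39.1% and 41.4%), close to the 40.9% and 36.3% of all genes tested, and from nB to Pb 51 were higher and 28 lower (58.6% and 32.2%, against 39.5% and 41.1%).

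In actB, GSK343 against DMSO gave 3 higher and 1 lower of the 38 genes (7.89% and 2.63%), against 8.20% and 2.16% of all genes tested, a share near the background. The median log2 fold change was 0.06, against 0.03 over all genes. The split of calls over all genes, 926 higher and 244 lower, moved with the scaling, to 606 and 378 with quantile normalization, 690 and 370 with median scaling, and 816 and 425 by edgeR with TMM factors. The largest rise was that of *Mcfd2* (chr17:87653998-87665275 in mm9, minus strand), at 13.1, 12.4, and 12.8 RPKM with DMSO and 16.8, 16.8, and 17.2 with GSK343. The libraries with and without inhibitor do not overlap, and the log2 fold change was 0.40 ± 0.0545 (adjusted p = 0.0011), called in all 28 alternative settings. *Gbf1* was at 16.5, 15.6, and 16.1 RPKM with DMSO and 19.7, 18.1, and 20.04 with GSK343 (0.26 ± 0.0513, adjusted p = 0.0083). *Sec22b* was at 23.6, 21.98, and 21.8 RPKM with DMSO and 27.1, 24.5, and 26.3 with GSK343 (0.21 ± 0.0595, adjusted p = 0.0466), a call lost in 17 of 28 settings. *Kdelr3* was lower, at 1.25, 1.11, and 0.933 RPKM with DMSO and 0.537, 0.832, and 0.542 with GSK343 (-0.62 ± 0.156, adjusted p = 0.0274). These levels rest on 32 to 42 and 18 to 29 reads a library, and the call was lost in 9 of 28 settings, among them edgeR with TMM factors (adjusted p = 0.0593) and the fits without DMSO replicate 1 or 2 or GSK343 replicate 1 or 3 (adjusted p from 0.0505 to 0.105). The intervals of the 34 genes not called ran from -0.24 to 0.48 on the log2 scale. When libraries of the same replicate number were paired by a block, 8 genes were higher: the 3 above and *Sec24d* (adjusted p = 0.0248), *Copz1* (0.0360), *Arf3* (0.0157), *Tmed10* (0.0433), and *Uso1* (0.00720). Without GSK343 replicate 2, 5 were higher, against 802 of all 11299 genes tested. Of the macrophage and monocyte genes, *Itgam* was at 4.66, 3.51, and 4.66 RPKM with DMSO and 12.8, 6.60, and 10.5 with GSK343, and it makes up most of the list's sum (4.16 to 5.47, against 8.34 to 14.2). The genes *Csf1r*, *Cd14*, and *Fcgr1* of that list were at or near 0 in all of these libraries (at most 0.108). *Adgre1* was low but higher with GSK343 (0.486, 0.419, and 0.405 RPKM, against 0.1265, 0.147, and 0.168 with DMSO). *Lyz2* overlapped (0.840, 1.13, and 0.348, against 0.588, 0.4075, and 0.270). The dendritic cell sum (38.8 to 65.3 with DMSO, 19.7 to 41.4 with GSK343) was again nearly all *Flt3*. The 6 plasma cell genes summed to 995 to 1030 RPKM with DMSO and 1030 to 1200 with GSK343. Within that list *Xbp1* (203.8, 218.7, and 237.4, against 182.8, 191.4, and 196.4) and *Jchain* (200.3, 227, and 264.7, against 193, 155.7, and 183.6) were higher with GSK343. *Prdm1* and *Sdc1* also lay higher in every library with GSK343, and *Irf4* and *Mzb1* overlapped. The part of these marker differences, or of cells that express *Itgam*, *Adgre1*, or *Flt3*, in the values above was not tested.

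In Pb, GSK343 against DMSO gave 7 higher and 0 lower of the 38 genes (18.4% and 0%), against 7.90% and 5.0% of all genes tested, with a median log2 fold change of 0.06 against 0.0031. Of the 7 genes, 5 are cargo receptors: *Tmed3*, *Mcfd2*, *Tmed9*, *Lman2*, and *Tmed10*. Of 15 further cargo receptors outside the 38 genes, 1 was higher and 1 lower in Pb (6.67% each), with a median log2 fold change of -0.0155. *Tmed3* was at 37.8, 42.3, and 37.9 RPKM with DMSO and 50.6, 53.2, and 48.8 with GSK343 (0.37 ± 0.0836, adjusted p = 0.0136). *Mcfd2* was at 37.2, 39.2, and 39.8 RPKM with DMSO and 47.95, 48.6, and 45.04 with GSK343 (0.28 ± 0.0545, adjusted p = 0.00617). *Tmed9* was at 169, 181, and 175 RPKM with DMSO and 206, 202, and 197 with GSK343 (0.20 ± 0.0381, adjusted p = 0.00569). For each of these 3 genes, every library with GSK343 was above every library with DMSO. *Mcfd2* and *Tmed9* were called in all 28 alternative settings and *Tmed3* in 26. *Sec22b* (0.20 ± 0.0595, adjusted p = 0.0494), *Copz1* (0.19 ± 0.0482, adjusted p = 0.0223), *Lman2* (0.17 ± 0.0468, adjusted p = 0.0344), and *Tmed10* (0.16 ± 0.0461, adjusted p = 0.0428) made up the rest. Their calls were lost in 13, 4, 11, and 14 of 28 settings. *Kdelr3* was at 11.4, 13.8, and 11.8 RPKM with DMSO and 9.39, 10.8, and 8.85 with GSK343, with every library lower, but was not called (-0.34 ± 0.156, adjusted p = 0.184). The intervals of the 31 genes not called ran from -0.68 to 0.34.

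These Pb calls rest on small changes and on few libraries. Leaving out 1 library at a time gave 2 to 9 higher, with 2 without DMSO replicate 1, 3 without DMSO replicate 3, GSK343 replicate 1, or GSK343 replicate 3, and 4 without DMSO replicate 2 or GSK343 replicate 2. Leaving out DMSO replicate 3 or GSK343 replicate 3 of actB, which changes only the shared estimate of the spread, also gave 4. The calls over all 11299 genes tested fell too in these fits. From 893 higher they went to 533 without DMSO replicate 1 of Pb and to 472 to 785 without another Pb library. Without DMSO or GSK343 replicate 3 of actB they were 807 and 789. Paired by the same block, 10 genes were higher, with *Arf1* (adjusted p = 0.00853), *Arf3* (0.0350), and *Surf4* (0.0206) added. Taking the merged nB library as number 2 in the block, *Kdelr3* was lower as well. The markers of these groups did not move as one. The 6 plasma cell genes summed to 4620 to 4870 RPKM with DMSO and 4720 to 5170 with GSK343, which overlap. Within that list *Sdc1*, the gene of the sorted surface protein CD138, was higher with GSK343 (58.8, 53.3, and 53.7 RPKM, against 28.8, 30.4, and 29.8), *Irf4* was lower (300.3, 323, and 315, against 358, 391, and 367), and *Prdm1* overlapped (116, 112, and 124, against 116, 121, and 126). The 6 B cell genes summed to 922 to 942 RPKM with DMSO and 753 to 894 with GSK343, and the macrophage and monocyte genes to 0.482 to 0.930 and 1.01 to 1.29. The part of these differences in the values of the transport genes was not tested.

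**Figure D4:**
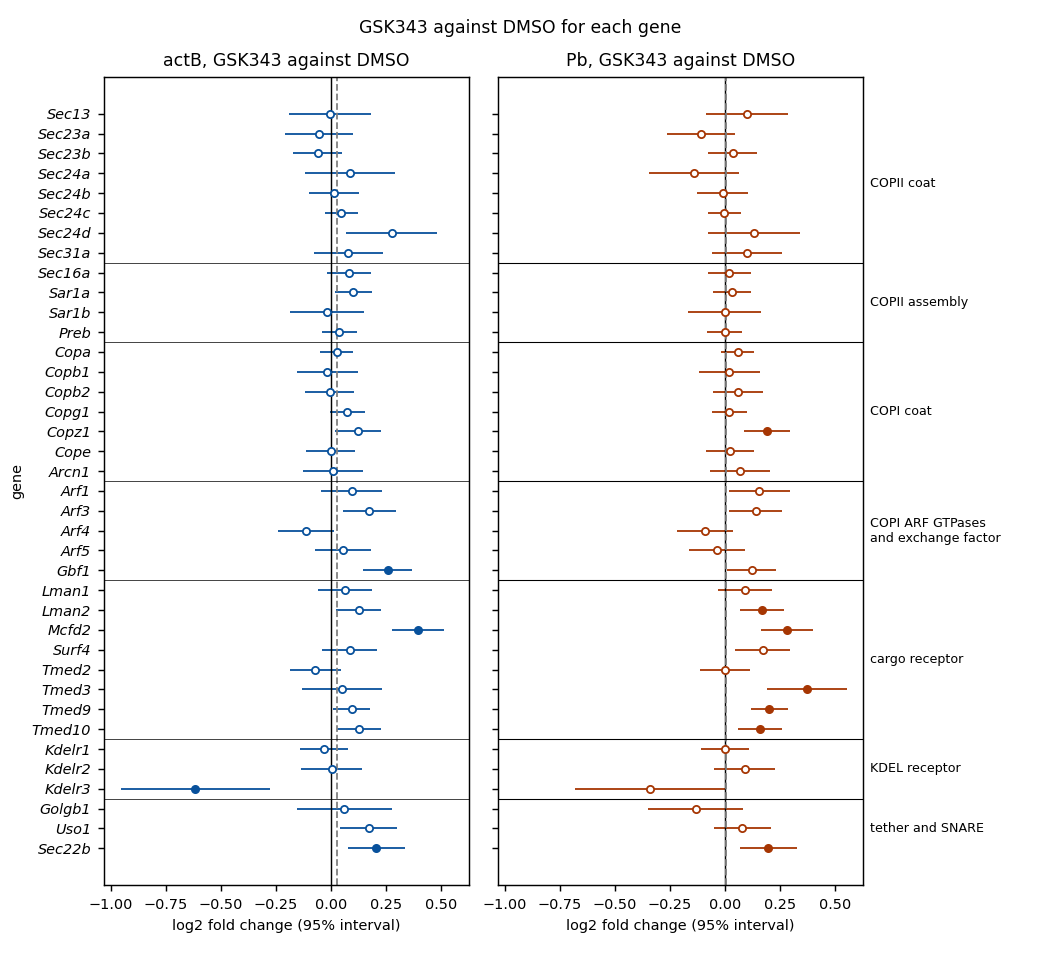
Log2 fold change of each gene (points, with the 95% interval) for GSK343 against DMSO in actB (left) and in Pb (right); filled points have an adjusted p under 0.05 and the dashed line is the median of all genes tested. Cargo receptors hold 5 of the 7 filled points in Pb, and *Kdelr3* lies furthest to the left in both cell types.

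**Figure D5:**
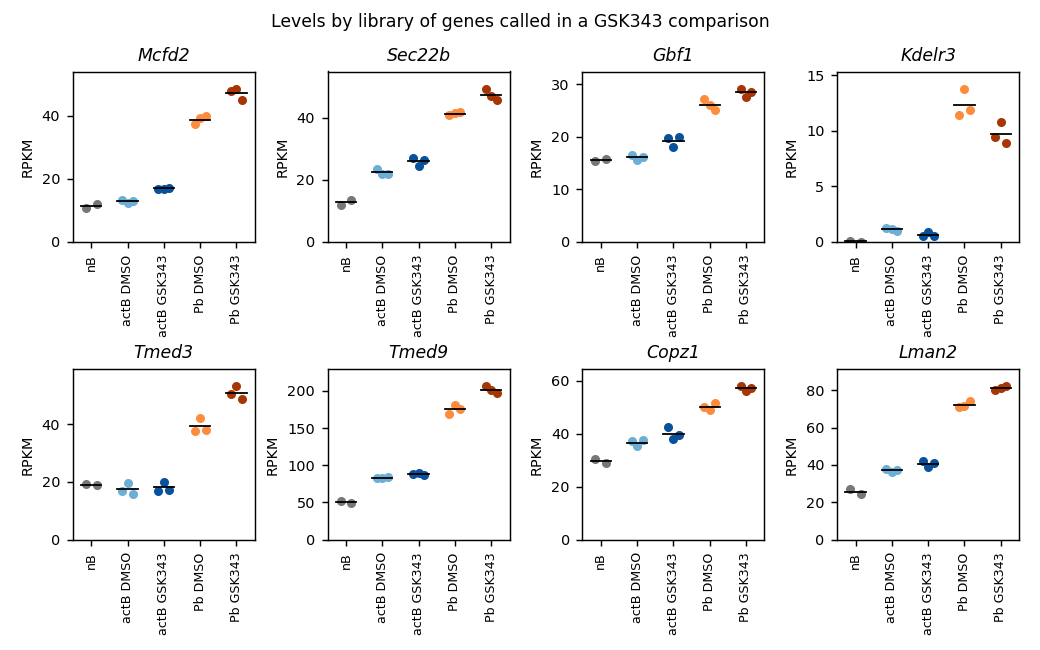
RPKM (vertical axis, from 0) of 8 genes called in a GSK343 comparison, by group, with a point for each library and a line at the mean. *Mcfd2* and *Sec22b* are higher with GSK343 in both cell types by less than they differ between actB and Pb, and *Tmed3* is higher with GSK343 in Pb (48.8 to 53.2, against 37.8 to 42.3 with DMSO).

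*Mcfd2* and *Sec22b* were called higher with GSK343 in both cell types by limma, *Sec22b* only narrowly (adjusted p = 0.0466 in actB and 0.0494 in Pb). How many of all genes tested were called in both was not counted, so this overlap has no background to be set against. Whether the effect of GSK343 differed between Pb and actB was tested as an interaction. None of the 38 genes was called higher or lower by limma, against 0.0974% and 0.150% of all genes tested, and 1 had an unadjusted p under 0.05. By edgeR with TMM factors 0 were called. Over all genes the split was 11 higher and 17 lower, against 21 and 12 with median scaling and 9 and 9 with quantile normalization. The largest difference was that of *Tmed3*, at 16.97, 19.6, and 15.8 RPKM in actB with DMSO and 16.9, 20.03, and 17.2 with GSK343. Its effect was larger in Pb by 0.32 ± 0.118 (adjusted p = 0.409), which the replicate block brought under the threshold (adjusted p = 0.0334, with the merged nB library taken as number 1). Intervals of this difference over the 38 genes ran from -0.52 to 0.76, bounds set by *Sec24a* and *Kdelr3*.

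Of the paralogue families, *Kdelr3* in actB was the 1 gene called with GSK343 in the main fit. *Sec24a* was at 9.01, 7.58, and 9.31 RPKM in actB and 37.2, 31.1, and 34.7 in Pb with GSK343. *Sec24b* was at 23.98, 22.8, and 23.1 RPKM in actB and 16.8, 16.5, and 16.5 in Pb with GSK343. None of these differences from DMSO was called. *Sec24c* was at 60.1, 59.97, and 61.1 RPKM in actB and 88.98, 85.7, and 87.9 in Pb with GSK343. In actB every *Sec24c* value with GSK343 lay above those with DMSO (0.0475 ± 0.034, adjusted p = 0.441). *Sec24d* was at 19.03, 15.04, and 18.8 RPKM in actB and 83.8, 73.3, and 79.2 in Pb with GSK343. In actB, where 1 *Sec24d* library with GSK343 lay within the range of DMSO, its log2 fold change was 0.28 ± 0.0952 (adjusted p = 0.0872), and in Pb, where the groups overlap, it was 0.13 ± 0.0952 (adjusted p = 0.428). *Sec24d* held 16% ± 1.5 of the family's RPKM in actB and 36.2% ± 0.74 in Pb with GSK343, against 13.9% ± 0.34 and 33.5% ± 0.80 with DMSO. *Sec24a* held 15.8% ± 0.69 in Pb, against 17.7% ± 0.51.

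For the SEC23 and SAR1 pairs, no difference with GSK343 was called in either cell type in the main fit. *Sec23a* was at 9.21, 8.87, and 9.35 RPKM in actB and 27.3, 23.03, and 26.8 in Pb with GSK343. *Sec23b* was at 41.4, 38.5, and 41.99 RPKM in actB and 86.9, 82.6, and 88.5 in Pb with GSK343. Every one of these groups overlapped with DMSO. *Sar1a* was at 63.7, 59.8, and 61.9 RPKM in actB and 109, 109, and 110 in Pb with GSK343. In actB every *Sar1a* value with GSK343 lay above those with DMSO (0.10 ± 0.0389, adjusted p = 0.124). *Sar1b* was at 50.03, 48.4, and 57.5 RPKM in actB and 121, 111, and 125 in Pb with GSK343.

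Among the ARF genes, GSK343 gave no call in the main fit. *Arf1* was at 165, 144, and 161 RPKM in actB and 216, 202, and 220 in Pb with GSK343. In Pb every *Arf1* value with GSK343 lay above those with DMSO (0.15 ± 0.0638, adjusted p = 0.14). *Arf3* was at 34.4, 32.5, and 31.5 RPKM in actB and 25.7, 25.9, and 25.1 in Pb with GSK343. All *Arf3* values with GSK343 exceeded those with DMSO in both cell types. In the main fit neither difference was called (0.17 ± 0.0552, adjusted p = 0.0654 in actB and 0.14 ± 0.0552, adjusted p = 0.124 in Pb). Paired by the block, with the merged nB library as number 1, both were called. *Arf4* was at 60.8, 69.1, and 68.6 RPKM in actB and 147, 154, and 160 in Pb with GSK343. In actB every *Arf4* value with GSK343 lay below those with DMSO (-0.11 ± 0.0586, adjusted p = 0.264). *Arf5* was at 51.9, 53.7, and 47.05 RPKM in actB and 47.2, 47.4, and 43.4 in Pb with GSK343. The KDEL receptor genes beside *Kdelr3* had log2 fold changes from -0.03 to 0.09. *Kdelr1* was at 54.1, 55.4, and 56.3 RPKM in actB and 168, 155, and 164 in Pb with GSK343. *Kdelr2* was at 51.4, 48.2, and 50.1 RPKM in actB and 150, 146, and 150 in Pb with GSK343. In Pb every *Kdelr2* value with GSK343 lay above those with DMSO (0.09 ± 0.0639, adjusted p = 0.422).

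Among the 87 other genes of the route, GSK343 gave 5 higher and 4 lower in actB (5.75% and 4.60%, against 8.20% and 2.16% of all genes tested). The share lower was above that of all genes there, and 3 of the 15 further cargo receptors were lower and 0 higher (20% and 0%). In Pb 6 were higher and 3 lower (6.90% and 3.45%, against 7.90% and 5.0%), shares near the background. *Tmed5*, a p24 receptor outside the 38, was lower in both cell types (-0.43 ± 0.0666, adjusted p = 0.00232 in actB and -0.37 ± 0.0666, adjusted p = 0.00413 in Pb). It was at 40.5, 34.9, and 37.4 RPKM in actB with DMSO and 26.3, 27.6, and 29.9 with GSK343, and at 46.97, 48.4, and 45.5 and 34.4, 36.2, and 38.1 in Pb. For neither cell type do the groups overlap. In actB the next falls were those of *Bcap29* (-0.27 ± 0.0731, adjusted p = 0.0355) and the p24 gene *Tmed7* (-0.24 ± 0.0563, adjusted p = 0.0206), and the largest rises were those of the TRAPP genes *Trappc2l* (0.31 ± 0.0881, adjusted p = 0.0425) and *Trappc1* (0.26 ± 0.0641, adjusted p = 0.0252) and of *Arfgap3* (0.27 ± 0.0458, adjusted p = 0.00363). In Pb the next falls were those of *Nbas*, of a tether for COPI vesicles at the ER (-0.23 ± 0.0658, adjusted p = 0.0381), and *Napg*, a SNARE adaptor (-0.20 ± 0.049, adjusted p = 0.0211). The largest rises in Pb were those of *Pef1*, which modulates the COPII coat (0.35 ± 0.0505, adjusted p = 0.00106), *Yif1b* (0.34 ± 0.0717, adjusted p = 0.00938), and *Copg2* (0.31 ± 0.075, adjusted p = 0.0198). No gene of this list was called in the interaction (5 had an unadjusted p under 0.05).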

How the data were processed

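Poly(A) RNA was sequenced from naive B cells, activated B cells, and plasmablasts, with a stranded library kit. Per the methods of the study and the submitters' processing notes, the authors mapped paired-end reads to the mm9 genome with TopHat2 (version not given in the sources used here) and the UCSC known genes, and counted reads over exons of each Entrez gene. Whether counting used the strand is not stated. The deposited table holds RPM, reads scaled by the authors to the same total in each library, for 15 libraries, together with a gene length. The deposited values are not divided by length. They are whole multiples of 1 read in 100% of values (tolerance 0.05 reads plus an allowance for the rounding of the printed values). Reads per library were thus recovered: 19421830 to 26307413, with 3 reads equal to 0.114 to 0.154 RPM. The 92 entries without a symbol (up to 0.09% of a library's reads) were left out.

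RPM was divided by length in kilobases to give RPKM. Groups and replicate numbers were taken from the sample labels. nB replicates 1 and 2 were averaged into 1 library. The 11299 genes that reached 1 RPKM in 3 or more of 15 columns went into a fit by limma 3.58.1 (R 4.3.3; trend, log2(RPKM + 0.25), 14 libraries in 5 groups, 9 residual degrees of freedom) and called at a Benjamini-Hochberg adjusted p under 0.05. The study's methods used edgeR. Here edgeR 4.0.16 (quasi-likelihood test) was run on the recovered reads of the 11146 genes that reached 3 RPM in 3 or more libraries, as an alternative. Other alternatives were the pseudocount, the filter, the scaling, the replicate block, the compared groups alone, and each library left out. The fits without all cultured libraries numbered 2 and the family shares by RPM were added after the data were seen. In actB, libraries numbered 2 differed most from the others of their group. Chi-square per degree of freedom was 26.7 and 23.4, against 3.8 for numbers 1 and 3 with DMSO, and 29.7 and 16.7, against 6.07 with GSK343. Without the cultured libraries numbered 2, GSK343 gave 4 higher and 1 lower of the 38 genes in actB and 6 higher in Pb. The cause was not tested. Both tools found 100% of genes changed by 1 and by 2 on the log2 scale when tested on simulated data for GSK343 against DMSO in actB (11299 genes). All called GSK343 effects on the transport genes were smaller than these. The simulation therefore does not show how many changes of that smaller size would be found.

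Samples of different groups share replicate numbers in their titles. Deviations from group means correlated within numbers 1 (r = 0.158 to 0.502), 2 (0.435 to 0.713), and 3 (0.219 to 0.356). Between different numbers r ran from -0.603 to 0.370, which overlaps with numbers 1 and 3. The study's methods state no pairing, so the main fit has no replicate term and the replicate block was run as an alternative. The labels do not say whether replicates came from separate animals, so p-values measure the spread between these samples. The transport genes, the wider pathway list, and the marker lists of 8 cell types were chosen with earlier results of these data known. Values in every library are given for the 3 largest called rises and falls of a comparison, for paralogue families, and for genes called in the GSK343 comparisons that the plots show. Copz1, Cope, Tmed2, Surf4, and pathway genes with values by library were picked after their values were seen. Positions in mm9 were taken from the GENCODE annotation of that build. Promoter windows came from RefSeq on GRCm38.p6 and were matched by symbol. Intervals on read ratios are exact and cover counting error only.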

Additional observations from a re-analysis of the deposited data

How the results depend on the processing

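The calls of the 38 genes along differentiation held in all 29 fits from actB to Pb (35 higher, 2 lower) and from nB to Pb (35 and 3), and ranged from 26 to 30 higher and 3 to 5 lower after activation. *Sec24c* after activation turned to -0.049 on the log2 scale with quantile normalization. The GSK343 calls depended on the settings, and the cause was not tested. In actB, against 3 higher, 8 and 7 were higher with the replicate block (merged nB library as number 1 or 2), 6 by edgeR with TMM factors and the block, and 1 with the compared groups alone. Leaving out 1 library gave 2 to 5. Against 1 lower in actB, 0 were lower with a pseudocount of 0.05, with no filter, with the compared groups alone, and by edgeR with TMM or RLE factors, and leaving out 1 library gave 0 to 1. In Pb, against 7 higher, 4 were higher by edgeR with TMM factors and 2 to 9 with 1 library left out. Against 0 lower, 1 (*Kdelr3*) was lower with the replicate block (merged nB library as number 2) and by edgeR with the block. For the difference between the cell types, against 0, 1 (*Tmed3*) was called with the block (merged nB library as number 1) and by edgeR with the block. The replicate block moved no differentiation call count by over 1.5 times. Over all genes, the block gave 1659 higher and 758 lower with GSK343 in actB and 1553 and 1227 in Pb (893 and 565 without it), and 76 and 146 for the difference, and the compared groups alone gave 339 and 47 in actB and 2 and 2 for the difference. *Tmed3* after activation was called lower with the block (-0.19). Levels under 3 reads (0.114 to 0.154 RPM) could not be told from 0.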
